A study of Mus musculus with 6 samples.

Results

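Of the 54532 genes in the deposited table, 8 were followed here for their place in osteoclast formation and the fusion of macrophages into multinucleate cells: Dcstamp, Ocstamp, Tm4sf19, Oscar, Nfatc1, Mitf, Acp5 and Ctsk. They were chosen by gene symbol, with earlier results of these data known, and all 8 were found, each as 1 row. The cells were mouse macrophages derived from bone marrow, and RNA sequencing gave 6 libraries. The 3 libraries labelled Tet2 knockout were compared with the 3 labelled wild-type. Both groups were treated with MSU, or monosodium urate, which forms crystals in gouty joints, so the comparison concerned the Tet2 label within MSU-treated cells. The deleted part of Tet2, the strain, sex and age of the mice, the number of mice, and the dose and duration of MSU are not given in the sources used here. The labels do not say whether the replicates were separate animals or cultures. The p-values therefore weigh the group difference only against the spread between these libraries, and that spread may be technical.

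Osteoclasts are the bone-resorbing cells of the macrophage lineage. They form when macrophage precursors receive CSF1 and RANK ligand together with a costimulatory signal through adaptor proteins that carry an immunoreceptor tyrosine-based activation motif (ITAM). These signals converge on NFATc1, which works with MITF and PU.1 to switch on the genes of cell fusion, acid secretion and matrix digestion. Macrophages can also fuse into giant cells around material they cannot digest, and they use part of the same fusion machinery.

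The library labels were checked on Tet2 itself, which encodes an enzyme that oxidises methylated cytosine. Tet2 had 467, 482 and 450 counts in the libraries labelled Tet2 knockout, against 413, 338 and 427 in those labelled wild-type. It was thus not lower under the knockout label (log2 difference 0.20, SE 0.07; edgeR adjusted p = 0.0159), and the call did not survive leaving out Tet2 knockout replicate 2 (adjusted p = 0.0553) or wild-type replicate 2 (0.0799), in a range of 0.0143 to 0.350 over 15 alternative settings. The check therefore did not bear out the labels. A count over all exons can miss a partial deletion, and "knockout" below refers to the label of the libraries. Total counts ran from 13425170 to 14481843 in the libraries labelled Tet2 knockout and from 11997104 to 13881435 in those labelled wild-type. Wild-type replicate 2, the shallowest, differed from its 2 fellow replicates on the second principal component (18.8 against -10.4 and -9.21). All 8 macrophage markers passed the filter on low counts, with a summed level of 6665 to 6939 CPM (counts scaled to library size with TMM factors) in the knockout libraries and 6492 to 6906 CPM in wild-type. Within that similar sum 4 rose and 3 fell: Adgre1 stood at 1303 ± 13.5 CPM in knockout and 759.8 ± 15.3 CPM in wild-type (log2 difference 0.78), Csf1r, Mertk (0.65) and Fcgr1 were also higher in knockout, and Lyz2 (-0.47), Cd14 (-0.18) and Cd68 (-0.09) were lower. Fibroblast markers, Col1a1 and Col1a2 above all, were about as abundant as macrophage markers. Their sum was 6520 to 6681 CPM in the knockout libraries and 6785 to 7261 CPM in wild-type. In both groups the range of this sum overlapped that of the macrophage sum. Of the 8 fibroblast markers 4 fell, Col1a1 (-0.11), Col1a2 (-0.09), Dcn (-0.25) and the scarce Lum (-1.15), and 1 rose, Col3a1 (0.11). Both marker counts are to be read against all tested genes, of which 21.6% rose and 19.2% fell at an edgeR adjusted p under 0.05. Neutrophil markers summed to 32.6 to 37.0 CPM in knockout and 25.01 to 29.0 CPM in wild-type, nearly all from Csf3r, with Ly6g at 0. Among T and NK cell markers Cd3d and Nkg7 were at 0 and Cd4, which macrophages can express, was higher in knockout (11.8 against 3.48 CPM). B cell markers summed to less than 1 CPM in every library.

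In the libraries labelled Tet2 knockout, Tm4sf19 was 3.55-fold lower, Dcstamp 2.01-fold lower and Acp5 1.56-fold lower than in wild-type, while Mitf was 1.23-fold higher. Tm4sf19 and Dcstamp encode membrane proteins tied to osteoclast fusion, Acp5 encodes tartrate-resistant acid phosphatase, the histochemical mark of osteoclasts, and Mitf encodes a transcription factor of the lineage. Nfatc1 and Ctsk did not pass the test, and Ocstamp and Oscar were too low to be tested. Of the 6 members that passed the filter on low counts, 3 fell and 1 rose at an edgeR adjusted p under 0.05, where 19.2% of all 13175 tested genes fell and 21.6% rose. The groups did not overlap for 4 of these 6 members, against 47.8% of all tested genes: the knockout libraries lay entirely below wild-type for 3 (23.0% of all tested genes) and entirely above for 1 (24.8%). The median log2 difference of the 6 was -0.29, against -0.0031 over all tested genes. These counts describe a handful of genes, and no test was made over the set.

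**Figure D1:**
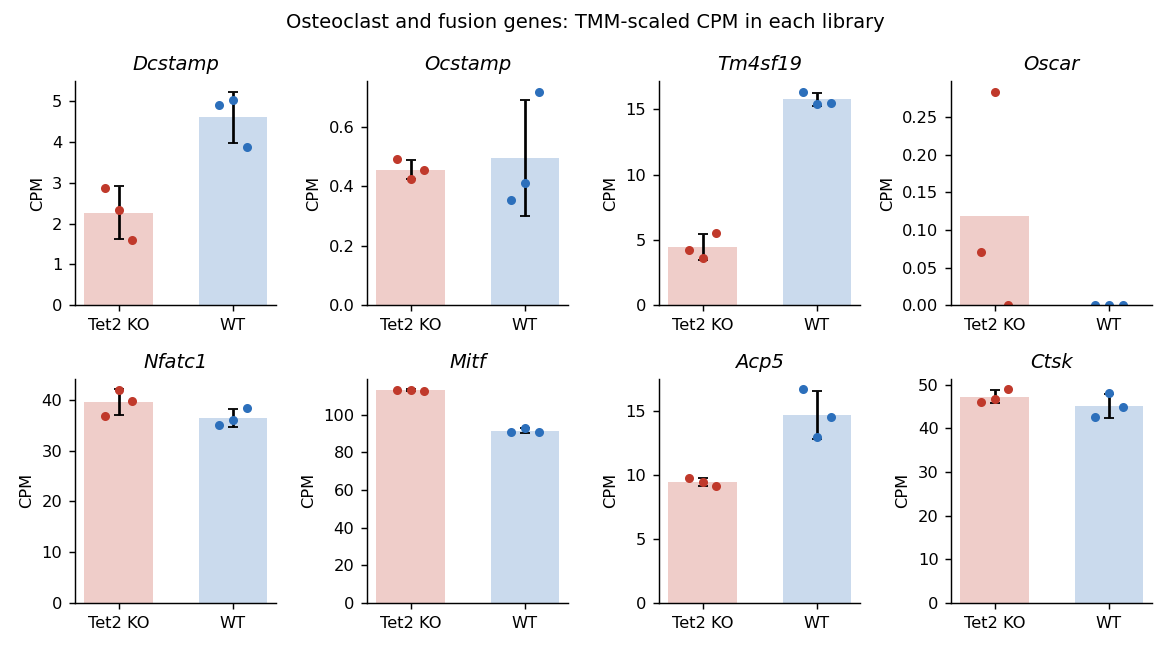
TMM-scaled CPM (vertical axes, each from 0) of the 8 genes in the 3 libraries labelled Tet2 knockout (red, left) and the 3 labelled wild-type (blue, right); points are libraries, bars are means and whiskers the SD (none for Oscar). For Tm4sf19, Dcstamp and Acp5 every knockout point lies below every wild-type point, and for Mitf every knockout point lies above.

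The promoters of 3 members are shown because they belong to the member with the largest fall, Tm4sf19, and to the resorption enzymes that parted, Acp5 and Ctsk. Each window runs from 250 bases before to 50 after an annotated start in RefSeq (GRCm38.p6, which is mm10), written 5′ to 3′ on the gene's strand. Capitals mark matches, on either strand, to the E-box of MITF-type factors (CACGTG), the M-box core (CATGTG), the NFAT core (GGAAA), the AP-1 site (TGANTCA) and the PU.1 core (GAGGAA). The last shares the letters GGAA with the NFAT core, so a run of GAGGAAA matches both.
Tm4sf19, chr16:32400256-32400555, plus strand: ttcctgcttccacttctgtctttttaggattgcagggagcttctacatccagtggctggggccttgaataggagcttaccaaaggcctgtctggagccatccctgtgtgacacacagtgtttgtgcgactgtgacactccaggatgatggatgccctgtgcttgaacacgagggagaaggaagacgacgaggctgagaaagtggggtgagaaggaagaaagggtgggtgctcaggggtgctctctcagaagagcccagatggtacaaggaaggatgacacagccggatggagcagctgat
Acp5, chr9:22130549-22130848, minus strand: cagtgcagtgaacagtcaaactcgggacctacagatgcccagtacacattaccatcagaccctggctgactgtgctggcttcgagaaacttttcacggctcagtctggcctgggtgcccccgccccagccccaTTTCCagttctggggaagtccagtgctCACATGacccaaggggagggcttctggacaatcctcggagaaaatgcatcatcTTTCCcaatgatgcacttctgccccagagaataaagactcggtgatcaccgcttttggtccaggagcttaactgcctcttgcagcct
Ctsk, chr3:95498960-95499259, plus strand: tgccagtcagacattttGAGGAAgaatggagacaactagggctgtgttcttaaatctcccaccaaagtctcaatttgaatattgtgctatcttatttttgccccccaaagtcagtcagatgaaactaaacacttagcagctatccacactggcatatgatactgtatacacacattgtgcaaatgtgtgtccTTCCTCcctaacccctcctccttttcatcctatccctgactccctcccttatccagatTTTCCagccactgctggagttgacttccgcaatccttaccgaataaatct
The Tm4sf19 window held none of these motifs. The Acp5 window, which is 1 of 3 listed for the gene, held 1 M-box core at positions -90 to -85 from the start, on the opposite strand, and 2 NFAT cores. It is shown because it held the most matches of the 3, and each of the others held 1 NFAT core and no other match. The Ctsk window held 2 PU.1 cores and 1 NFAT core at positions 0 to 4. Among all 32851 promoter windows of this length, 14.2% held an M-box core, 61.3% an NFAT core, 28.3% a PU.1 core, 7.15% the E-box and 7.81% the AP-1 site. A match of letters is not evidence of binding, and no match says only that these letters are not in the window.

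Dcstamp and Ocstamp encode multipass membrane proteins that osteoclast precursors need in order to fuse, as shown by mouse knockouts of either gene. Dcstamp (ENSMUSG00000022303, mm10 chromosome 15, positions 39745930 to 39760938, plus strand) had 41, 33 and 21 counts in the libraries labelled Tet2 knockout, against 69, 61 and 54 in those labelled wild-type. All 3 knockout libraries were below all 3 wild-type libraries, and knockout replicate 3 was the lowest. The scaled level was 2.27 ± 0.647 CPM in knockout and 4.61 ± 0.629 CPM in wild-type (SD, n = 3 each). The log2 difference was -1.01 with an SE of 0.21 (edgeR adjusted p = 4.45e-05). Counting alone would give a spread of 17.8% between the knockout libraries, and 28.5% was seen. Over 15 alternative settings the difference ran from -1.21, without knockout replicate 1, to -0.81, without knockout replicate 3, and passed in each. Dcstamp was first found in dendritic cells, and the dendritic cell marker Itgax, which macrophages also express, stood at 9.41 ± 0.640 CPM in knockout and 30.7 ± 2.09 CPM in wild-type. Of the 8 dendritic cell markers, 1 fell (Itgax) and 1 rose (Xcr1), Siglech and Cd209a were at 0, Flt3 had at most 2 counts in any library, and the summed level was 14.4 to 16.6 CPM in knockout and 32.7 to 37.8 CPM in wild-type. Itgax made up most of that sum in both groups. No other marker of the list had a lower mean in knockout than in wild-type, so the lower sum came from Itgax alone. The part of these markers in the Dcstamp result was not tested. In bulk RNA, fewer cells of a type and less RNA per cell cannot be told apart.

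Ocstamp (ENSMUSG00000027670, chromosome 2, positions 165393760 to 165400405, minus strand) was barely present, with 7, 6 and 6 counts in the knockout libraries and 5, 5 and 10 in wild-type. The groups overlapped. Its sums of 19 counts (exact Poisson 95% interval 11.4 to 29.7) in knockout and 20 counts (12.2 to 30.9) in wild-type could not show a difference at this depth. Such intervals cover counting error only. The relatives Dcst1 and Dcst2 were as scarce, with at most 9 counts in any library.

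Tm4sf19 (ENSMUSG00000079625, chromosome 16, positions 32400506 to 32408227, plus strand) encodes a membrane protein of the L6 family that has been linked to osteoclast fusion in mice. It had 60, 51 and 73 counts in the libraries labelled Tet2 knockout, against 230, 187 and 215 in those labelled wild-type. The highest knockout library had far fewer counts than the lowest wild-type library. In CPM the levels were 4.45 ± 0.974 in knockout and 15.7 ± 0.516 in wild-type (SD, n = 3 each). The log2 difference was -1.83 with an SE of 0.13 (edgeR adjusted p = 7.39e-24). Only 18 of the 13175 tested genes had a more negative difference. It lay between -2.00 and -1.70 over the 15 alternatives and passed in each. The annotation gives Tm4sf19 a single transcript of 5 exons, and no other gene of the deposited table overlaps it. Within the L6 family, Tm4sf1, best known from endothelial and tumour cells, also fell (31.3 ± 0.552 CPM in knockout, 46.6 ± 1.65 CPM in wild-type; log2 difference -0.57, edgeR adjusted p = 1.81e-13). Tm4sf4, Tm4sf5 and Tm4sf20 were not tested, with at most 8 counts in any library.

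**Figure D2:**
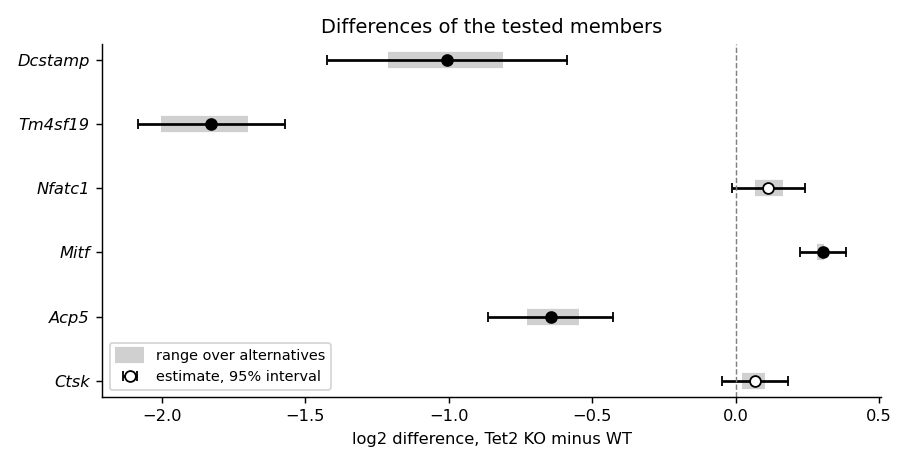
Log2 difference, Tet2 knockout minus wild-type (horizontal axis), of the 6 tested members; filled points passed an edgeR adjusted p of 0.05 and open points did not, whiskers are 95% intervals from the fit and grey bands the range over 15 alternative settings. Tm4sf19, Dcstamp and Acp5 lie left of 0 with bands that stay there, and Nfatc1 and Ctsk have intervals that include 0.

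Oscar (ENSMUSG00000054594, chromosome 7, positions 3609813 to 3616157, minus strand) encodes a collagen receptor that signals through the ITAM adaptor FcRγ during osteoclast formation. It had 1, 4 and 0 counts in the libraries labelled Tet2 knockout and 0 in each of those labelled wild-type. The 5 counts in knockout have an exact Poisson 95% interval of 1.62 to 11.7, and for the 0 counts in wild-type the same interval reaches 3.69 counts. By the rule of 3 counts over the group, a one-sided limit, the wild-type floor is 0.0758 CPM. The gene was therefore at the edge of detection and was not tested. The downstream part of the route was abundant. Of 14 listed ITAM adaptors, costimulatory receptors and their signalling partners, 12 were tested, 6 rose and 4 fell, with a median log2 difference of 0.12. Over all tested genes 21.6% rose and 19.2% fell, and the counts of each list below are to be read against those shares. The lists were chosen with earlier results of these data known, so their shares are descriptions and not tests. Fcer1g, which encodes FcRγ, stood at 331 ± 2.98 CPM in knockout and 225 ± 8.17 CPM in wild-type (log2 difference 0.56; edgeR adjusted p = 8.46e-33). Clec5a, a receptor that pairs with DAP12, and the kinase gene Syk rose by 0.68 and 0.27 on the log2 scale. Lower in knockout were the Fc receptor genes Fcgr3 (-0.84) and Fcgr4 (-0.23), the linker gene Blnk (-0.14) and Trem2 (-0.07). Without knockout replicate 3, 2 of the list fell.

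Nfatc1 (ENSMUSG00000033016, chromosome 18, positions 80606205 to 80713071, minus strand) encodes the calcium-regulated factor that is indispensable for osteoclast formation. It had 526, 591 and 525 counts in the libraries labelled Tet2 knockout, against 494, 436 and 535 in those labelled wild-type. On the scaled values the lowest knockout library, at 36.9 CPM, fell below the highest wild-type library, at 38.5 CPM. Means were 39.5 ± 2.54 CPM in knockout and 36.5 ± 1.75 CPM in wild-type (SD, n = 3 each). The log2 difference of 0.11 has a 95% interval from -0.01 to 0.24 and did not pass (edgeR adjusted p = 0.156; 0.0697 to 0.636 over the alternatives).

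Genes upstream of NFATc1 moved both ways. Of 22 listed genes of RANK and CSF1 signalling, 21 were tested, 6 rose (28.6%, against 21.6% of all tested genes) and 5 fell (23.8%, against 19.2%), with a median log2 difference of -0.02. The receptor genes rose: Tnfrsf11a, which encodes RANK, stood at 102 ± 1.29 CPM in knockout and 65.7 ± 2.73 CPM in wild-type (log2 difference 0.63; edgeR adjusted p = 8.17e-24). Csf1r, the CSF1 receptor gene, rose by 0.55 and Plcg2, which feeds calcium release, by 0.39 on the log2 scale. Lower in knockout were the NF-kappaB genes Rela (-0.47) and Relb (-0.17), the AP-1 genes Jund (-0.36) and Junb (-0.08), and Prdm1 (-0.43), whose product represses the inhibitors of osteoclast formation. Fos, which drives Nfatc1, rose by 0.19. Tnfsf11, the RANK ligand gene, was low, at 5.75 ± 1.52 CPM in knockout and 4.89 ± 1.12 CPM in wild-type, and did not pass (edgeR adjusted p = 0.268). The decoy receptor gene Tnfrsf11b did not pass either, at 7.52 ± 0.655 CPM in knockout and 8.33 ± 0.873 CPM in wild-type (edgeR adjusted p = 0.404).

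Of 11 listed genes of calcineurin, its regulators and the other NFAT factors, 10 were tested, 3 rose and 3 fell (21.6% and 19.2% of all tested genes). Nfat5, the tonicity-responsive member, stood at 105 ± 4.14 CPM in knockout and 77.4 ± 7.43 CPM in wild-type (log2 difference 0.44; edgeR adjusted p = 2.09e-13). Rcan1, a calcineurin regulator that NFAT itself induces, rose by 0.26 on the log2 scale. Nfatc3 (log2 difference 0.13; edgeR adjusted p = 0.0198) and Nfatc4 (-0.29; 0.0208) overlapped between the groups. Nfatc3 no longer passed when knockout replicate 1 (adjusted p = 0.0503) or 2 (0.216) or wild-type replicate 2 (0.120) or 3 (0.0730) was left out, in a range of 0.00784 to 0.542 over the alternatives. Nfatc4 no longer passed when knockout replicate 1 (adjusted p = 0.134) or wild-type replicate 1 (0.0760) or 2 (0.136) was left out, in a range of 0.00278 to 0.185. The number that fell, 3, which includes the calcineurin subunit genes Ppp3cb (-0.11) and Ppp3r1 (-0.10), was 1 without knockout replicates 1 or 3 or wild-type replicate 1, 0 without wild-type replicate 2, and 0 with DESeq2.

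Mitf (ENSMUSG00000035158, chromosome 6, positions 97807052 to 98021349, plus strand) encodes a basic helix-loop-helix factor of the MiT family that acts in melanocytes, mast cells and osteoclasts. It had 1611, 1596 and 1485 counts in the libraries labelled Tet2 knockout, against 1276, 1126 and 1265 in those labelled wild-type. Every knockout library exceeded every wild-type library. The level was 113 ± 0.504 CPM in knockout and 91.5 ± 1.22 CPM in wild-type (SD, n = 3 each). The log2 difference was 0.30 with an SE of 0.04 (edgeR adjusted p = 4.63e-10). The spread between knockout libraries, 0.446%, was smaller than the 2.53% that counting alone gives on average. With an assumed biological coefficient of variation of 0.1 between libraries the difference no longer passed (adjusted p = 0.0779, against at most 2.00e-07 in the other alternatives). The annotation gives Mitf 6 protein-coding transcripts with 6 different starts, in a gene that spans 214 kb. The deposited value is a sum over the whole gene and does not show which start was used. Of the melanocyte markers Tyr, Dct and Tyrp1 were at 0 and the sum of all 5 stayed under 1 CPM in every library. The 7 mast cell and basophil markers summed to 3.62 to 5.30 CPM in knockout and 5.12 to 5.61 CPM in wild-type, with Ms4a2, Tpsb2 and Fcer1a at 0, and Gata2 fell (edgeR adjusted p = 0.0101).

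Of 9 listed genes of the MiT family and its partners, all 9 were tested, 3 rose and 3 fell (21.6% and 19.2% of all tested genes), with a median log2 difference of 0.01. Tfec, the family member most restricted to macrophages, stood at 30.5 ± 1.73 CPM in knockout and 24.0 ± 2.05 CPM in wild-type (log2 difference 0.34; edgeR adjusted p = 9.91e-05). Tfe3 rose by 0.13 and Fnip2, a folliculin partner, by 0.09 on the log2 scale, while Tfeb stood at 34.6 ± 0.818 CPM in knockout and 34.2 ± 0.834 CPM in wild-type (edgeR adjusted p = 0.894). The 3 that fell encode proteins of the nutrient-sensing route that holds MiT factors in the cytosol: Rragd (-0.36), Fnip1 (-0.16) and Rragc (-0.09). Not all listed genes of that route fell: the folliculin gene Flcn did not pass (log2 difference -0.08; edgeR adjusted p = 0.178), and Fnip2 rose. Spi1, which encodes PU.1, did not pass (log2 difference 0.06; edgeR adjusted p = 0.0994).

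**Figure D3:**
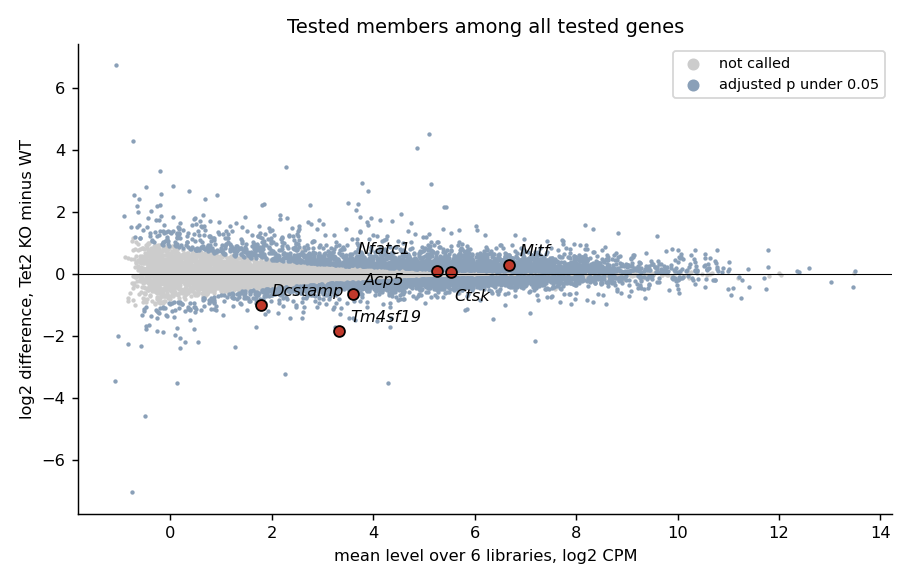
Log2 difference, Tet2 knockout minus wild-type (vertical axis), against mean level in log2 CPM (horizontal axis) for all 13175 tested genes; blue points passed an edgeR adjusted p of 0.05, grey points did not, and the 6 tested members are red. Tm4sf19 lies below the bulk of genes of its level, and Nfatc1 and Ctsk lie near 0.

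Acp5 (ENSMUSG00000001348, chromosome 9, positions 22126727 to 22135711, minus strand) had 139, 133 and 121 counts in the libraries labelled Tet2 knockout, against 235, 157 and 202 in those labelled wild-type. The groups did not overlap, and wild-type replicate 2 came closest to the knockout libraries. Levels were 9.45 ± 0.299 CPM in knockout and 14.7 ± 1.88 CPM in wild-type (SD, n = 3 each). The log2 difference was -0.64 with an SE of 0.11 (edgeR adjusted p = 6.43e-07). It was -0.73 without wild-type replicate 2 and -0.55 without wild-type replicate 1, the extremes over the 15 alternatives, and passed in each. A noncoding gene on the opposite strand, 6530413G14Rik, overlaps Acp5 and had 1 count in all 6 libraries together.

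Ctsk (ENSMUSG00000028111, chromosome 3, positions 95499256 to 95509362, plus strand) encodes cathepsin K, the collagen-digesting protease of osteoclasts, which fibroblasts also make. It had 656, 658 and 646 counts in the libraries labelled Tet2 knockout, against 599, 582 and 625 in those labelled wild-type. After scaling the groups overlapped, since wild-type replicate 2 reached 48.0 CPM and the knockout libraries ran from 46.0 to 48.9 CPM. Means were 47.2 ± 1.49 CPM in knockout and 45.2 ± 2.74 CPM in wild-type (SD, n = 3 each). The log2 difference of 0.07 has a 95% interval from -0.05 to 0.18 and did not pass (edgeR adjusted p = 0.398; 0.195 to 0.849 over the alternatives). The share of Ctsk counts that came from cells expressing the abundant fibroblast markers was not tested. Ctsk lies 38.0 Mb from Tet2 on the same chromosome.

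Ratios between members restate the single-gene differences above and are no separate evidence. Others were computed and are not shown. The ratio of Acp5 to Ctsk in CPM was 0.212, 0.202 and 0.187 in the knockout libraries, against 0.392, 0.270 and 0.323 in wild-type. Relative to Mitf, Tm4sf19 stood at 0.0372, 0.0320 and 0.0492 in the knockout libraries, against 0.180, 0.166 and 0.170 in wild-type. An exact two-sided permutation test of 3 against 3 libraries cannot go below p = 0.1, so these ratios are given as values.

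Per kilobase of the deposited gene length, which allows genes to be set beside each other, Ctsk was the most abundant member in both groups, at 31.2 ± 0.983 CPM per kb in knockout and 29.9 ± 1.81 in wild-type, above 86.1% and 85.5% of tested protein-coding genes. Mitf came second, at 18.2 ± 0.0813 CPM per kb in knockout and 14.8 ± 0.197 in wild-type. Behind these the order differed. In the knockout libraries Nfatc1 (median 5.35 CPM per kb), Acp5 (4.65) and Tm4sf19 (3.35) followed, and in wild-type Tm4sf19 (12.3), Acp5 (7.16) and Nfatc1 (4.84). Dcstamp came next in both groups, with medians of 0.880 CPM per kb in knockout and 1.84 in wild-type, and then Ocstamp, with 0.124 and 0.113. Within a group the ranges of neighbours in this order overlapped only for Ocstamp and Oscar in the knockout libraries. Ctsk made up 48.3% to 49.4% of the members' summed CPM per kb in knockout and 39.8% to 44.0% in wild-type.

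**Figure D4:**
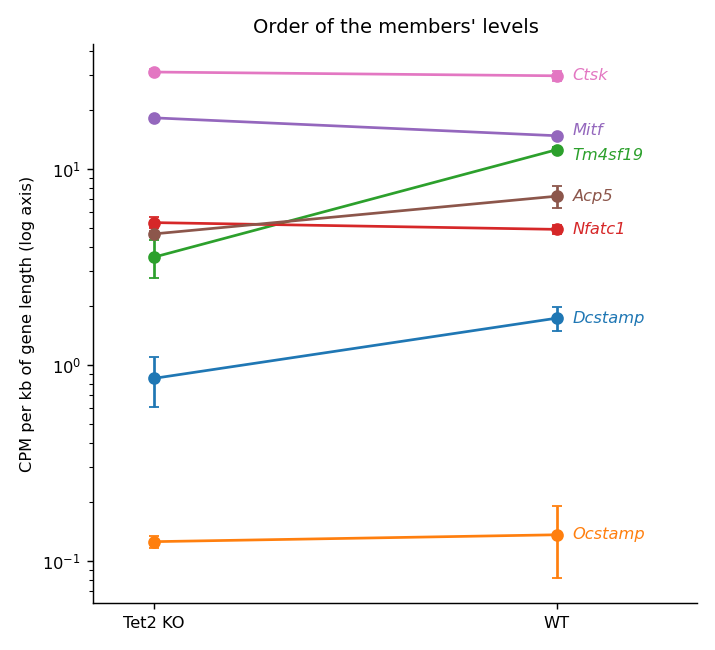
Mean level in CPM per kb of gene length (vertical log axis) of 7 members in the libraries labelled Tet2 knockout (left) and wild-type (right), with SD whiskers (n = 3 each); Oscar is left out because it was at 0 in wild-type. The lines of Tm4sf19 and Acp5 cross that of Nfatc1, and Ctsk and Mitf lead in both groups.

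Of 16 other listed genes of cell fusion, 13 were tested, 9 rose (69.2%, against 21.6% of all tested genes) and 1 fell (7.69%, against 19.2%), with a median log2 difference of 0.12. Sirpa, the CD47 receptor gene, stood at 1972 ± 8.40 CPM in knockout and 1459 ± 6.03 CPM in wild-type (log2 difference 0.43; edgeR adjusted p = 3.28e-35). The unconventional myosin gene Myo10 and the sheddase gene Adam8 rose by 0.43 and 0.28 on the log2 scale. The genes that rose include abundant ones that passed at small differences, such as Cd9 (0.08) and Cd47 (0.11). The 1 that fell was Atp6v0d2, a proton pump subunit gene that osteoclasts also need for fusion, at 226 ± 8.68 CPM in knockout and 420.02 ± 9.25 CPM in wild-type (log2 difference -0.89; edgeR adjusted p = 7.71e-51). Without wild-type replicate 2, or with upper-quartile scaling, 2 genes of the list fell.

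Among 20 listed genes of acid secretion, attachment and resorption, 19 were tested, 11 rose (57.9%, against 21.6% of all tested genes) and 3 fell (15.8%, against 19.2%), with a median log2 difference of 0.11. Itgav, the integrin subunit gene of the osteoclast vitronectin receptor, stood at 449 ± 4.99 CPM in knockout and 331 ± 1.91 CPM in wild-type (log2 difference 0.44; edgeR adjusted p = 3.19e-28). Mmp14, a membrane-bound metalloproteinase gene, and Atp6v0a1, a proton pump subunit gene, rose by 0.54 and 0.47 on the log2 scale. All 3 that fell encode proton pump subunits: Atp6v0d2, Atp6v1c1 (-0.33) and Tcirg1 (-0.11), the last the subunit of the osteoclast ruffled border. Car2, which supplies the protons, did not pass (5.69 ± 0.560 CPM in knockout, 6.39 ± 0.257 CPM in wild-type). Of the 7 markers of mature osteoclasts 5 were tested, and of these Itgb3 and Slc9b2 rose and Atp6v0d2 fell. The summed level of all 7 was 323 to 335 CPM in knockout and 503 to 519 CPM in wild-type. Atp6v0d2 made up most of that sum, and the other 6 markers together ran the other way, at 99.5 to 104 CPM in knockout and 89.4 to 93.4 CPM in wild-type. Calcr, the calcitonin receptor gene that defines the mature cell, had 2 counts in 1 knockout library and 0 in the other 5 libraries, and Mmp9 stood at 25.4 ± 1.34 CPM in knockout and 25.9 ± 1.75 CPM in wild-type (edgeR adjusted p = 0.849). With Oscar, Ocstamp and Calcr at or near 0, the members were read in cells without the full set of osteoclast markers.

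Of 14 listed restraints of osteoclast formation, all 14 were tested, 5 rose (35.7%, against 21.6% of all tested genes) and 7 fell (against 19.2%), with a median log2 difference of -0.20. Id2, an inhibitor of helix-loop-helix factors, stood at 223 ± 2.46 CPM in knockout and 287 ± 7.11 CPM in wild-type (log2 difference -0.36; edgeR adjusted p = 1.13e-19). Its relative Id3 fell by 0.31 and Tnfaip3, which limits NF-kappaB, fell by 0.29. The 5 that rose were Lilrb4a (0.34), an inhibitory receptor gene, Rgs10 (0.41), Cyld (0.23), Rbpj (0.18) and Irf8 (0.17), of which Irf8 is the factor that RANK ligand switches off. Rgs10 is placed among restraints by the list, although mouse work has also described it as needed for osteoclast formation. Of the 8 markers of osteoblasts and stroma 4 were tested: Runx2 and Alpl did not pass, Spp1, which macrophages also make, and Cxcl12 rose, and Bglap had at most 1 count in any library.

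Of 9 other cysteine cathepsin genes, 8 were tested, 3 rose (37.5%, against 21.6% of all tested genes) and 4 fell (against 19.2%), with a median log2 difference of -0.03. Ctsl stood at 1790 ± 12.3 CPM in knockout and 3059 ± 54.1 CPM in wild-type (log2 difference -0.77; edgeR adjusted p = 1.82e-57). Ctss (-0.18), Ctsz (-0.15) and Ctsh (-0.10) also fell. Ctsc (0.58), whose product activates serine proteases, Ctso (0.37) and Ctsf (0.38) rose.

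**Figure D5:**
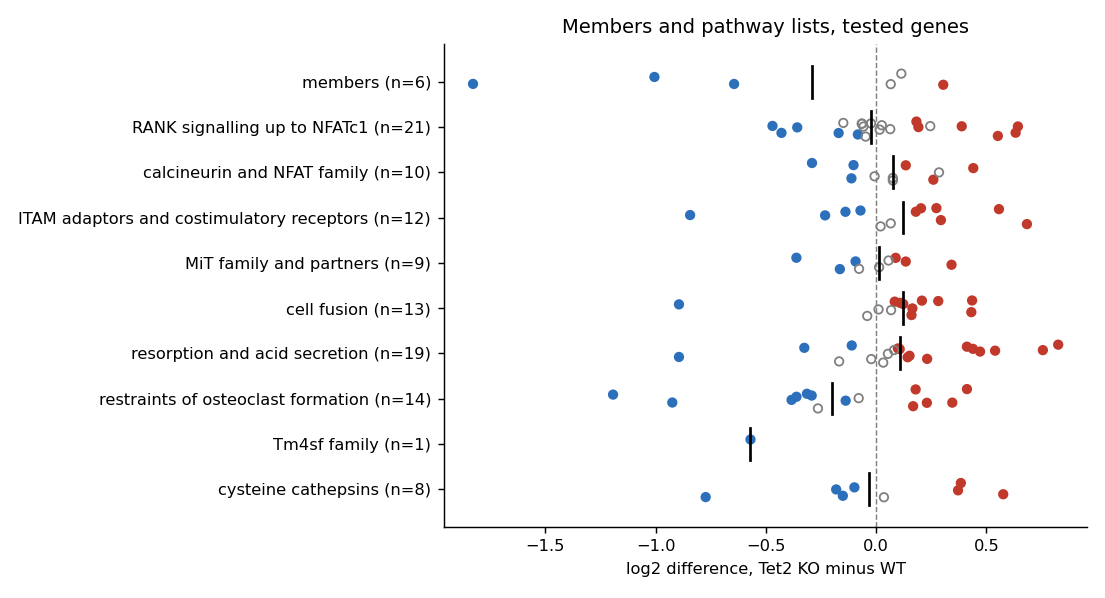
Log2 difference, Tet2 knockout minus wild-type (horizontal axis), of every tested gene in the members and the 9 pathway lists (rows); red and blue points passed an edgeR adjusted p of 0.05 as higher or lower, open points did not, and black ticks are medians. The members' median is -0.29, while the median is 0.12 for cell fusion and 0.11 for resorption genes.

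Replicates differed little, with an edgeR estimate of 2.63% for the biological variation shared by all genes, and the number of calls rests on it. With a coefficient of 0.1 assumed instead, 14.3% of all tested genes passed, 1222 of the 13175 as higher and 663 as lower. Tm4sf19, Dcstamp and Acp5 also passed. The counts of higher and lower genes then were 2 and 1 of 13 tested for cell fusion, 6 and 2 of 19 for resorption and 2 and 4 of 14 for the restraints. They were 4 and 3 of 21 for RANK signalling, 2 and 1 of 12 for the ITAM list and 1 and 0 of 10 for calcineurin and NFAT. For the MiT family they were 0 and 1 of 9, and for the cathepsins 2 and 1 of 8. The 69.2% of cell fusion genes that rose in the main test thus depended on the small estimated spread.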

How the data were processed

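Per the labels' protocols, an RNeasy Plus Mini kit gave the RNA and a NEBNext Ultra RNA kit the libraries. The submitters' processing notes name fastp, STAR, featureCounts and mm10, without versions. The authors deposited raw gene counts, with symbols, coordinates and gene lengths as other columns. No source used here gives the strand setting, so a gene and its antisense partner cannot be told apart.

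The test was edgeR's robust quasi-likelihood test (edgeR 4.0.16 in R 4.3.3) on TMM-scaled libraries, with genotype label as its single term. The function filterByExpr, at a minimum count of 10, passed 13175 of the 54532 genes. P-values were adjusted by Benjamini-Hochberg over all tested genes, with a threshold of 0.05. Log2 differences are knockout minus wild-type (prior count 0.125), and levels are TMM-scaled CPM. The test was tried on simulated data first. Promoter windows came from RefSeq tables, which matched 5 of the 8 members (Acp5, Ctsk, Oscar, Tm4sf19 and Mitf), and gene models from GENCODE M21, whose coordinates equalled the deposited ones for all 8 members. Figures were drawn in Python 3.11.15 with matplotlib 3.10.9.

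The members, the 9 pathway lists and 10 marker lists were chosen with earlier results of these data known. From each pathway list the text names up to 4 called genes with the smallest p. Further genes are named where few of a list moved one way, or for their role. That choice was made with their values in view. Alternatives were RLE and upper-quartile scaling, no filter, a floor of 1 CPM in 3 libraries, a table of protein-coding genes alone, DESeq2 1.42.0, limma-voom (limma 3.58.1), an assumed biological coefficient of variation of 0.1, the replicate number as a block, and each library left out in turn.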

Additional observations from a re-analysis of the deposited data

How the results depend on the processing

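The fall of Tm4sf19, Dcstamp and Acp5 passed under all 15 alternatives, and Ctsk and Nfatc1 passed under none. With an assumed biological coefficient of variation of 0.1, 1222 genes were called higher and 663 lower, in place of 2852 and 2533, and 0 members were called higher in place of 1, since Mitf no longer passed. No other alternative moved the counts over all genes or over the members by more than 1.5 times. Of the 39 single-gene differences computed for the members, Tet2 and the list genes, none changed sign, 13 were no longer called with the assumed spread, 3 with DESeq2, 1 with upper-quartile scaling, and 0 to 3 when 1 library was left out. Deviations from the group mean showed no pairing by replicate number. They correlated between -0.0206 and 0.00365 for libraries that share a number and between -0.0145 and 0.0216 for the others. Such values cannot tell whether equal numbers shared a day or a preparation, which the labels do not say. With the replicate number as a block, 2789 genes were called higher and 2470 lower, and none of the 39 calls changed. The depth, from 11997104 to 14481843 counts a library, leaves Ocstamp and Oscar below the range in which a difference could be read.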

Other observations

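The nearest tested protein-coding genes on either side of each member had the following values. Their distances ran from 1.22 kb (Ndufa3, beside Oscar) to 904 kb (Foxp1, beside Mitf). Ocstamp, which was near the floor, lies 4.62 kb from Slc13a3, a citrate and dicarboxylate transporter gene, which stood at 8.74 ± 0.975 CPM in the libraries labelled Tet2 knockout and 2.96 ± 0.834 CPM in wild-type (SD, n = 3 each; log2 difference 1.54, edgeR adjusted p = 1.50e-13). Its other neighbour, Zfp334, did not pass (9.20 ± 1.13 CPM in knockout, 9.39 ± 1.01 CPM in wild-type). Mitf has no close neighbour of this kind. Foxp1, a forkhead factor gene of the monocyte lineage 904 kb after it, stood at 83.9 ± 2.16 CPM in knockout and 71.1 ± 2.86 CPM in wild-type (log2 difference 0.24). Frmd4b, 190 kb before it, stood at 66.6 ± 4.86 CPM in knockout and 35.2 ± 2.07 CPM in wild-type (log2 difference 0.92). Beside Ctsk, the tandem cathepsin gene Ctss fell by 0.18 and Arnt fell by 0.13 on the log2 scale. Tm4sf19 lies between Ubxn7 (log2 difference -0.20, edgeR adjusted p = 0.00482) and Tctex1d2 (-0.23; edgeR adjusted p = 0.107), both far smaller differences than its own -1.83. The neighbours of Dcstamp were Rims2 (61.6 kb away), which did not pass, and Lrp12 (110 kb), which rose by 0.13. Neither neighbour of Acp5, Elof1 and Pigyl, passed. Beside Nfatc1, Ctdp1 (137 kb away) fell by 0.17 and Atp9b (21.1 kb) rose by 0.11 on the log2 scale. Neither neighbour of Oscar, Tarm1 (107 kb away) and Ndufa3, passed.

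The protein-coding genes whose levels, as log2(CPM + 0.5), over the 6 libraries were most like those of Tm4sf19 were Mcub, an inhibitory subunit gene of the mitochondrial calcium channel, Frg1 and the chemokine gene Cxcl14. Those most like Dcstamp were Bud13, Cbwd1 and Cyth3, those most like Acp5 were Pcf11, Gm2115 and Casc3, and those most like Mitf were Cxcl10, Hspa5 and Fabp4. For Ctsk they were Usp11, Sqor and Zfp362, and for Nfatc1 Ankrd27, Alg2 and Amigo3. Likeness was Pearson's correlation over libraries that fall into 2 groups, so it reads mainly the difference between groups: 628 of 12100 genes exceeded 0.95 for Tm4sf19, 170 for Dcstamp, 325 for Acp5, 1173 for Mitf, 17 for Ctsk and 25 for Nfatc1.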
